A study of Mus musculus with 12 samples.

Results

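miR-219 and miR-338 are a pair of miRNAs best known from oligodendrocytes, the cells that make myelin. Of the 619 miRNA assays in the table of Ct values, 6 were for these miRNAs. They were taken by name, as every assay of miR-219 or miR-338, whatever the arm: hsa-miR-219, hsa-miR-219-2-3p and rno-miR-219-1-3p for miR-219, and hsa-miR-338-3p, hsa-miR-338-5P and hsa-miR-338 for miR-338. The choice was made with earlier results of these data known. The prefix names the species for which the assay was designed. The Ct is the threshold cycle of a TaqMan reaction on the OpenArray, a plate of nanolitre qPCR wells, so each cycle less stands for about a doubling of the RNA.

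RNA came from the ipsilateral hippocampus of male C57BL/6 mice, aged 8 weeks in the labels and 8 to 12 weeks in the methods. There were 4 groups of 3 samples. The wt control and P2rx7-/- control groups were injected with vehicle (0 µg kainic acid, KA) into the amygdala, and the wt post-SE and P2rx7-/- post-SE groups with 0.3 µg KA, which induces status epilepticus (SE). All 4 groups were given lorazepam, an anticonvulsant, at 6 mg/kg 40 min after the injection, and tissue was taken 8 h after it. Each sample pooled 2 hippocampi from different mice, and 1 µg of total RNA was used. P2rx7-/- mice lack exon 2 of the gene for the P2X7 receptor, an ATP-gated ion channel, in every cell of the body. The panel holds no mRNA assay, so the deletion itself could not be checked here.

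miRNAs guide a silencing complex to mRNAs through their seed, the bases near the 5′ end. miR-219 and miR-338 increase as oligodendrocyte precursors mature, and they are known to repress factors that keep precursors dividing, such as Sox6, Hes5 and Pdgfra (the PDGF receptor of precursors). In bulk tissue such as this, fewer cells of a type and less RNA per cell cannot be told apart.

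The mature sequences are shown because both families are small and each strand has its own seed. Bases 2 to 8, the seed, are in capitals, the sequences and places are those of RefSeq on the mouse build GRCm38.p6, and all lie on the minus strand.
mmu-miR-219a-5p: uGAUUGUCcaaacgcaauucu
mmu-miR-219a-1-3p: aGAGUUGCgucuggacgucccg
mmu-miR-338-3p: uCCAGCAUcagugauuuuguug
mmu-miR-338-5p: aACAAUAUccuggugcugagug
The same miR-219a-5p, 21 bases long, comes from both Mir219a-2 (chr2:29845689-29845709) and Mir219a-1 (chr17:34025052-34025072), so hsa-miR-219 cannot tell these genes apart. The other strand of Mir219a-1 (chr17:34025010-34025031) is that of rno-miR-219-1-3p, and hsa-miR-219-2-3p is named for the 3′ strand of Mir219a-2, mmu-miR-219a-2-3p. miR-338-3p (chr11:120014781-120014802) and miR-338-5p (chr11:120014816-120014837) are both cut from Mir338. No other mature miRNA in the RefSeq table shares any of these 4 seeds. Both hsa-miR-338-3p and hsa-miR-338, an older name without an arm, were taken as assays of miR-338-3p by their names, as the files give no target sequences.

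The hairpins show how the strands sit in each precursor, with the mature strands above in capitals.
Mir338: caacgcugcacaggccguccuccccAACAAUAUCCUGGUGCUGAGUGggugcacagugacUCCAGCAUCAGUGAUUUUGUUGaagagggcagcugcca
Mir219a-1: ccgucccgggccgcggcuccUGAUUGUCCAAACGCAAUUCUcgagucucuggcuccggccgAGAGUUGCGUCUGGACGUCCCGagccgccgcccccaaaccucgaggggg
Mir219a-2: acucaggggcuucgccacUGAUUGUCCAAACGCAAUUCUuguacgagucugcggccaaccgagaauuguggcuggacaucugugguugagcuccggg
The 98 bases of Mir338 lie within Aatk, a gene for a kinase of the nervous system, and overlap Mir3065. The 97 bases of Mir219a-2 overlap Cercam and Mir219b. The 110 bases of Mir219a-1 overlap no protein-coding gene, and the nearest is Ring1.

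In each of the 12 samples, 4 of the 6 assays gave a Ct below 28, and these belong to the 335 assays on the panel that did so. rno-miR-219-1-3p had no Ct in wt post-SE replicate 1, and hsa-miR-338 had none in wt control replicate 1. Across the panel, wt control replicate 1 stood apart: its rank correlation with the other samples was 0.660 to 0.737, against 0.872 to 0.989 among the other 11. It held 31 values that were over 5 cycles below the median of the other samples and 24 that were over 5 cycles above it, and without it 382 assays were complete. Over all samples, 88 of 6052 values (1.45%) lay over 5 cycles below that median. Each assay was read once per sample. The 16 wells of snoRNA135 repeat a single assay within a sample, and their SD had a median of 0.281 cycles and a range of 0.197 to 3.63 cycles.

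The complete assays were of middling abundance. From here on, the level of an assay is the mean Ct of the 335 complete assays in that sample minus the Ct of the assay (−ΔCt), a log2 scale on which 0 is the sample average. By mean level over all samples hsa-miR-219 ranked 140, with hsa-miR-338-5P just above it, hsa-miR-338-3p ranked 168 and hsa-miR-219-2-3p ranked 169 of 335, an order that also depends on how well each assay amplifies. The SD within groups was 1.31 for hsa-miR-219, 1.29 for hsa-miR-219-2-3p, 0.606 for hsa-miR-338-3p and 0.598 for hsa-miR-338-5P, against a median of 0.636 over the 335 assays. Without wt control replicate 1 these became 1.01, 0.513, 0.458 and 0.502, with a median of 0.513, so only hsa-miR-219 among these 4 then still had a spread clearly above the median.

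**Figure D1:**
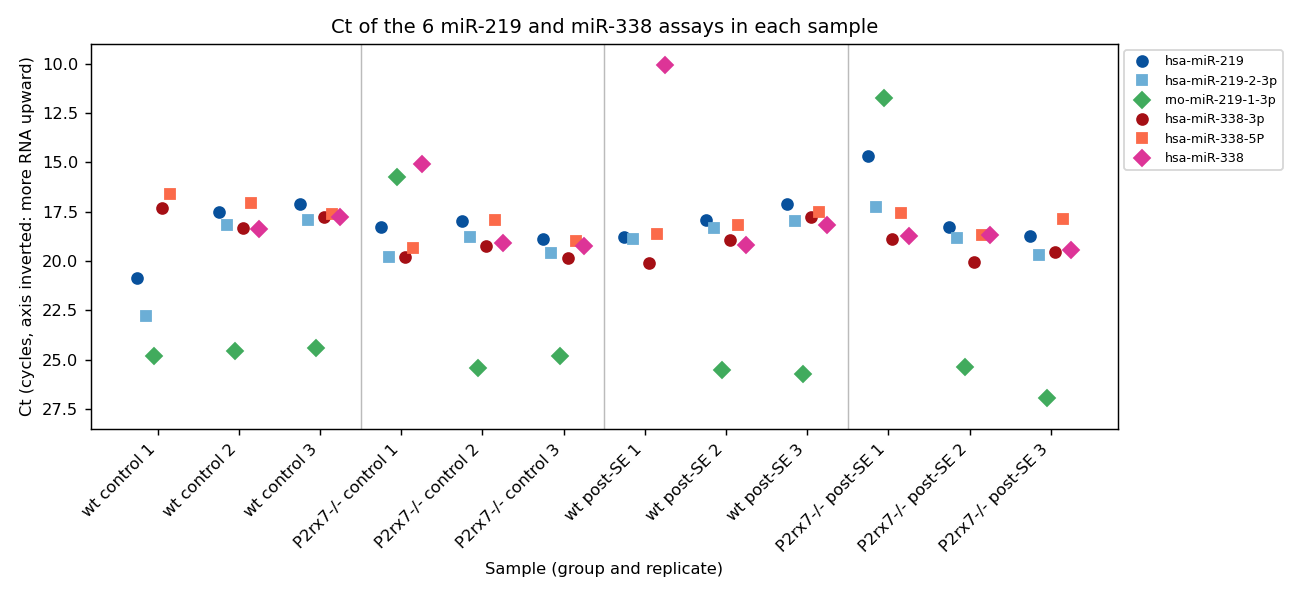
Ct in cycles, on an inverted axis so that more RNA is upward, of the 6 assays in each of the 12 samples, named by group and replicate; each point is 1 reading, and a missing point is an assay with no Ct. Most readings of the 4 complete assays and of hsa-miR-338 lie between 16.6 and 20.1, while rno-miR-219-1-3p lies near 25 apart from 15.8 and 11.7 in 2 samples, and hsa-miR-338 stands at 10.1 in wt post-SE replicate 1.

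Of the 4 complete assays, hsa-miR-338-3p had the clearest order among groups. This assay reads the 3p strand of Mir338, the strand tied to oligodendrocyte maturation. Its levels were 1.75, 0.25 and 0.48 in wt control replicates 1 to 3 and -0.62, -0.29 and -0.69 in P2rx7-/- control replicates 1 to 3. In wt post-SE they were -0.82, -0.06 and 0.83, and in P2rx7-/- post-SE -0.40, -0.95 and -0.47. All 3 P2rx7-/- control samples and all 3 P2rx7-/- post-SE samples lay below all 3 wt control samples, whereas wt post-SE overlapped every other group. The group means ran from 0.83 ± 0.81 in wt control to -0.02 ± 0.82 in wt post-SE, -0.53 ± 0.22 in P2rx7-/- control and -0.61 ± 0.30 in P2rx7-/- post-SE (SD, n = 3 each), and each of these groups overlapped the next one in the order.

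hsa-miR-338-5P, the other strand of the same hairpin, gave a similar picture for controls but not after status epilepticus. Its levels were 2.45, 1.52 and 0.64 in wt control and -0.16, 1.02 and 0.13 in P2rx7-/- control. They were 0.65, 0.73 and 1.09 in wt post-SE and 0.92, 0.40 and 1.23 in P2rx7-/- post-SE. P2rx7-/- control replicate 2 was above wt control replicate 3, so these groups overlapped, and the 3 wt post-SE values lay within the range of P2rx7-/- post-SE. The means were 1.54 ± 0.91 in wt control, 0.85 ± 0.42 in P2rx7-/- post-SE, 0.82 ± 0.24 in wt post-SE and 0.33 ± 0.62 in P2rx7-/- control (SD, n = 3 each), and neighbours in this order overlapped.

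hsa-miR-219, which reads the 5p strand common to both Mir219a genes, was ruled by 2 samples. Its levels were -1.80, 1.05 and 1.12 in wt control and 0.87, 0.93 and 0.24 in P2rx7-/- control. They were 0.48, 0.95 and 1.49 in wt post-SE and 3.85, 0.79 and 0.32 in P2rx7-/- post-SE. Leaving aside wt control replicate 1 and P2rx7-/- post-SE replicate 1, all values were between 0.24 and 1.49. The group means rank as P2rx7-/- post-SE (1.65 ± 1.91), wt post-SE (0.98 ± 0.51), P2rx7-/- control (0.68 ± 0.38) and wt control (0.12 ± 1.67; SD, n = 3 each), with overlap between all neighbours.

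hsa-miR-219-2-3p shared the low value of wt control replicate 1. The levels were -3.73, 0.40 and 0.32 in wt control, -0.61, 0.16 and -0.44 in P2rx7-/- control, and 0.40, 0.57 and 0.66 in wt post-SE. In P2rx7-/- post-SE they were 1.25, 0.26 and -0.61. All 3 wt post-SE samples were above all 3 P2rx7-/- control samples, a pair of groups that differs in genotype and treatment at once and was not tested. How many other assays on the panel separate these groups was not counted, so this is a description only. The means were 0.54 ± 0.13 in wt post-SE, 0.30 ± 0.93 in P2rx7-/- post-SE, -0.30 ± 0.41 in P2rx7-/- control and -1.003 ± 2.36 in wt control (SD, n = 3 each), and each overlapped the next.

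**Figure D2:**
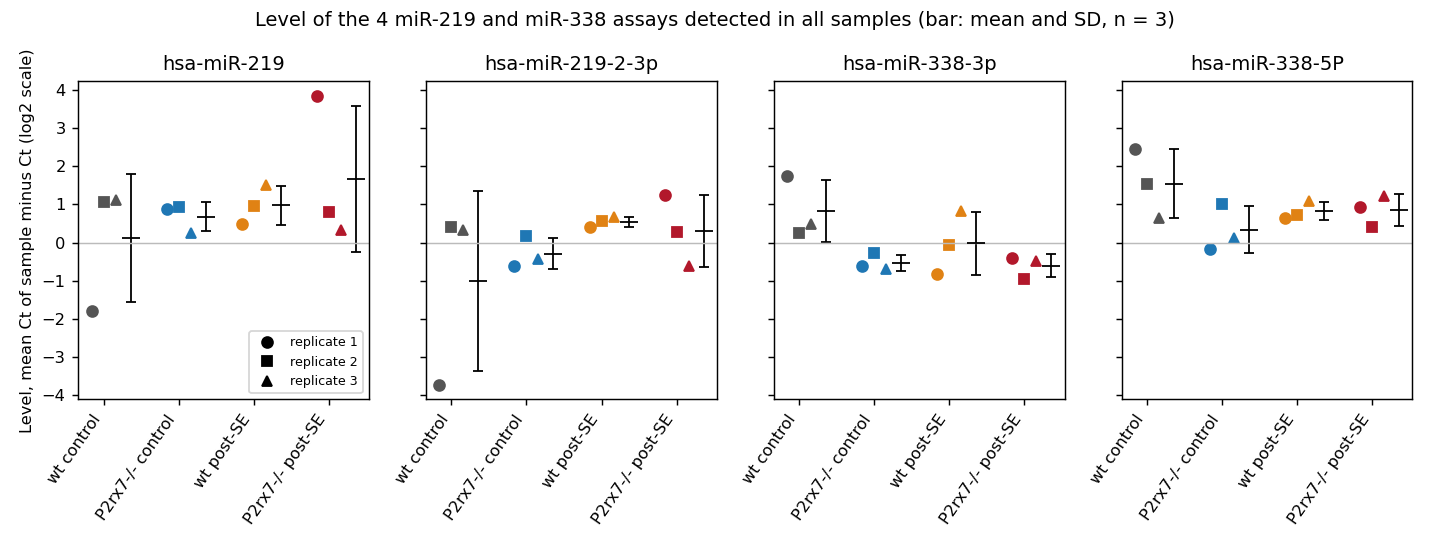
Level (mean Ct of the sample minus Ct, log2 scale) of the 4 complete assays in each sample, by group, with marker shape for the replicate and a bar for the mean and SD (n = 3). For hsa-miR-338-3p all P2rx7-/- samples lie at or below -0.29 and all wt control samples at or above 0.25, while hsa-miR-219 and hsa-miR-219-2-3p each have 1 wt control sample at -1.80 and -3.73.

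The question of what loss of P2X7 does without seizures is addressed by the control groups. FC is the fold change 2^−ΔΔCt of a sample against the mean of the reference group, and the study called a miRNA up-regulated above an average FC of 1.5 and down-regulated below 0.6. Both strands of miR-338 were down-regulated by that rule in P2rx7-/- control mice, as were 15.5% of the 335 assays. For hsa-miR-338-3p the FCs were 0.368, 0.462 and 0.348, with a mean of 0.393 ± 0.0611 (SD, n = 3), and for hsa-miR-338-5P they were 0.308, 0.698 and 0.377, with a mean of 0.461 ± 0.208 (SD, n = 3).

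In limma the difference for hsa-miR-338-3p was -1.36 on the log2 scale (SE 0.49, unadjusted p = 0.0194, Benjamini-Hochberg adjusted p = 0.615 over the 335 assays). That for hsa-miR-338-5P was -1.21 (SE 0.49, limma unadjusted p = 0.0317, adjusted p = 0.615). Neither passed the adjusted threshold of 0.05, and no assay on the panel did (percent called 0, with 20 of 335, 5.97%, at an unadjusted p below 0.05). The groups did not overlap for hsa-miR-338-3p, with P2rx7-/- lower, as for 10.4% of the 335 assays. The exact permutation test gave p = 0.1 for it (two-sided), the smallest that 3 against 3 samples allow, and p = 0.2 for hsa-miR-338-5P.

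The highest wt control level of both strands was in wt control replicate 1. Without that sample the limma difference of hsa-miR-338-3p was -0.88 (unadjusted p = 0.0891, adjusted p = 0.982) with an average FC of 0.546, still under 0.6, and that of hsa-miR-338-5P was -0.74 (unadjusted p = 0.141, adjusted p = 0.982) with an average FC of 0.638, no longer under it. With snoRNA135 in place of the global mean, the average FC of hsa-miR-338-5P was 0.633 and that of hsa-miR-338-3p 0.539. Whichever sample was left out, both differences kept their sign, from -1.65 to -0.88 for hsa-miR-338-3p and from -1.66 to -0.74 for hsa-miR-338-5P.

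Both complete miR-219 assays were up-regulated by the same rule in P2rx7-/- control mice, as were 21.2% of the 335 assays. The average FCs were 1.503 ± 0.367 for hsa-miR-219 and 1.68 ± 0.496 for hsa-miR-219-2-3p (SD, n = 3). The limma differences were 0.56 (SE 0.97, adjusted p = 0.870) and 0.70 (SE 0.96, adjusted p = 0.848). Without wt control replicate 1 both turned negative, to -0.39 and -0.64, with average FCs of 0.778 and 0.657, so the direction rested on that sample. The call for hsa-miR-219 also lay almost on the threshold, with average FCs of 1.40 and 1.29 under the mean of all detected assays and under snoRNA202. That for hsa-miR-219-2-3p was lost at 1.46 under snoRNA202 and at 1.39 without P2rx7-/- control replicate 2.

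For status epilepticus in wt mice, the complete miR-219 assays were higher and the complete miR-338 assays lower than in wt control. None of these 4 passed the test, and the direction of hsa-miR-219 rested on wt control replicate 1. The incomplete assays went the other way, with limma differences of -0.88 for rno-miR-219-1-3p and 2.80 for hsa-miR-338. The latter was -0.24 with Cts under 12 taken as missing. The average FCs of wt post-SE against wt control were 1.88 ± 0.659 for hsa-miR-219 and 2.93 ± 0.267 for hsa-miR-219-2-3p, both up-regulated by the rule as were 23.3% of the 335 assays, and 0.621 ± 0.347 for hsa-miR-338-3p and 0.616 ± 0.105 for hsa-miR-338-5P (SD, n = 3), just outside the lower threshold, under which 12.5% of assays lay. The limma differences were 0.85, 1.54, -0.84 and -0.71 in that order, with adjusted p from 0.664 to 0.834 and 0 of 335 assays called (13, or 3.88%, at an unadjusted p below 0.05). Without wt control replicate 1 hsa-miR-219 changed sign, to -0.14, and the others shrank to 0.16, -0.41 and -0.28, with average FCs of the 4 from 0.831 to 1.12. The average FC of hsa-miR-338-3p was 0.510 and that of hsa-miR-338-5P 0.484 when snoRNA202 was the normalizer, both then under 0.6. Without wt post-SE replicate 3 they were 0.431 and 0.556, and without wt control replicate 3 0.550 and 0.451. Without wt control replicate 2 that of hsa-miR-338-3p was 0.509.

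In P2rx7-/- mice the level of hsa-miR-338-3p after status epilepticus was close to that of controls, with an average FC against P2rx7-/- control of 0.963 ± 0.188 and a limma difference of -0.07 (SE 0.49, adjusted p = 0.998), a sign that turned to 0.01 with snoRNA202. The average FC of hsa-miR-338-5P was 1.47 ± 0.409, just short of the upper threshold, and passed it at 1.56 under the median or the mean of all detected assays at 1.60 under snoRNA202, and at 1.87 and 1.70 without P2rx7-/- control replicate 2 and without P2rx7-/- post-SE replicate 2. hsa-miR-219 was up-regulated by the rule with an average FC of 3.61 ± 4.65, and hsa-miR-219-2-3p with 1.73 ± 1.08 (SD, n = 3), as were 17.9% of the 335 assays. The hsa-miR-219 FCs were 8.98, 1.08 and 0.781. With P2rx7-/- post-SE replicate 1 left out, the average FC was 0.936 for hsa-miR-219 and 1.14 for hsa-miR-219-2-3p. The limma adjusted p was 0.998 for each of the 4 assays, and 0 of 335 assays were called (10, or 2.99%, at an unadjusted p below 0.05).

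Between genotypes after status epilepticus, the level of hsa-miR-338-3p was again lower in P2rx7-/- than in wt samples, but the groups overlapped. Its average FC against wt post-SE came to 0.673 ± 0.131 (SD, n = 3). The single values were 0.767, 0.523 and 0.729, and the limma difference was -0.59 (SE 0.49, adjusted p = 0.999). Without wt post-SE replicate 1, the lowest of its group, the average FC was 0.501, under the threshold of 0.6 that 4.48% of assays passed. Without wt post-SE replicate 3, the highest of its group, it was 0.901 and the limma difference -0.17. hsa-miR-338, named for the same strand, had a limma difference of -3.20 with all its values (adjusted p = 0.999). With Cts under 12 taken as missing it was -0.15 (limma adjusted p = 0.993), so that assay then showed little difference. hsa-miR-338-5P was at 1.05 ± 0.290 and hsa-miR-219-2-3p at 0.969 ± 0.605. hsa-miR-219 was up-regulated by the rule at 2.94 ± 3.78, as were 17.0% of the 335 assays, from FCs of 7.31, 0.882 and 0.636, and was at 0.756 without P2rx7-/- post-SE replicate 1. Over the panel limma called 0 of 335 assays (4, or 1.19%, at an unadjusted p below 0.05).

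P2rx7-/- post-SE samples were also set against wt control, the reference that the control and the wt post-SE comparisons use too, so these comparisons share 3 samples and are not independent. hsa-miR-338-3p had FCs of 0.428, 0.292 and 0.407, an average of 0.375 ± 0.0733, and all 3 P2rx7-/- post-SE samples lay below wt control, as for 7.46% of the 335 assays. It was down-regulated by the rule, as were 13.1% of assays, with a limma difference of -1.43 (SE 0.49, unadjusted p = 0.0149, adjusted p = 0.712) and -0.999 without wt control replicate 1 (average FC 0.507). Over the panel 12 assays (3.58%) had an unadjusted p below 0.05 and 0 were called. The other average FCs were 0.639 ± 0.177 for hsa-miR-338-5P, 5.31 ± 6.83 for hsa-miR-219 and 2.83 ± 1.76 for hsa-miR-219-2-3p (SD, n = 3), the last pair above 1.5 as were 20.6% of assays. The average for hsa-miR-219 fell short of that, at 1.37, with P2rx7-/- post-SE replicate 1 omitted, and without wt control replicate 1 that for hsa-miR-219-2-3p was 1.06. That for hsa-miR-338-5P passed below 0.6 under snoRNA202 (0.587), without wt control replicate 3 (0.468) and without P2rx7-/- post-SE replicate 3 (0.555). It was nearer to 1 without wt control replicate 1 (0.861, with a limma difference of -0.26 against -0.69 with it) and under snoRNA135 (0.846).

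**Figure D3:**
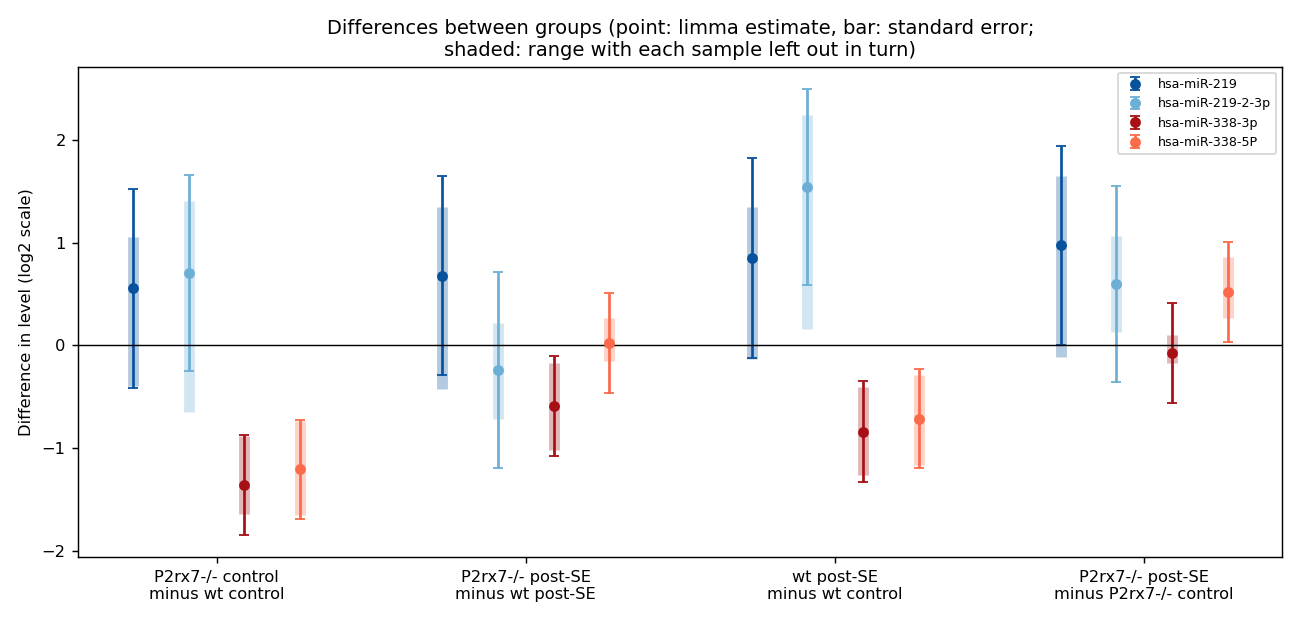
Difference in level (log2 scale) of the 4 complete assays in 4 comparisons of groups, with the limma estimate as a point, its standard error as a bar and, shaded, the range of the estimates with each sample left out in turn. Both miR-338 assays stay below 0 for P2rx7-/- control minus wt control (-1.36 and -1.21), whereas the shaded ranges of hsa-miR-219 cross 0 in each of the 4 comparisons.

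Averaged over treatments, hsa-miR-338-3p was lower in P2rx7-/- than in wt samples by a limma difference of -0.98 (SE 0.35, unadjusted p = 0.0180, adjusted p = 0.930), and hsa-miR-338-5P by -0.59 (SE 0.34, adjusted p = 0.930). Of the 335 assays, 16 (4.78%) had an unadjusted p below 0.05 in that comparison and 0 were called. The differences of the complete assays hsa-miR-219 and hsa-miR-219-2-3p were 0.62 and 0.23 (limma adjusted p = 0.955 and 0.991). Averaged over genotypes, the post-SE differences were 0.91 for hsa-miR-219, 1.07 for hsa-miR-219-2-3p, -0.46 for hsa-miR-338-3p and -0.10 for hsa-miR-338-5P, with limma adjusted p from 0.829 to 0.968 and 11 of 335 assays (3.28%) at an unadjusted p below 0.05. The interaction, the status epilepticus difference in P2rx7-/- minus that in wt mice, was 0.12, -0.95, 0.77 and 1.23 in the same order, with limma adjusted p from 0.851 to 0.967 and 8 assays (2.39%) at an unadjusted p below 0.05. No assay was called in either.

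The incomplete assays each had a few readings far from the rest. hsa-miR-338, named for the same 3p strand as hsa-miR-338-3p, had Cts of 18.4 and 17.8 in wt control replicates 2 and 3, 15.1, 19.1 and 19.2 in P2rx7-/- control, 10.1, 19.2 and 18.2 in wt post-SE and 18.7, 18.7 and 19.5 in P2rx7-/- post-SE. Its Ct minus that of hsa-miR-338-3p in the same sample was -4.71 cycles in P2rx7-/- control replicate 1 and -10.02 cycles in wt post-SE replicate 1. In the other 9 samples, chosen after the values were seen as those with a Ct of at least 16, this gap was -0.184 ± 0.516 cycles on average (SD, n = 9) and from -1.36 to 0.372. Leaving those 2 readings aside, hsa-miR-338 was at -0.15 and -0.10 in P2rx7-/- control replicates 2 and 3 and at 0.19 and 0.46 in wt control replicates 2 and 3, on the level scale. In P2rx7-/- post-SE it was at -0.25, 0.41 and -0.38, which overlapped wt control, with an average FC against wt control of 0.780. So the separation and the call of hsa-miR-338-3p in that comparison were not seen with this assay. P2rx7-/- post-SE replicate 2 was the highest of its group by hsa-miR-338 and the lowest by hsa-miR-338-3p (-0.95). With all its values, the limma difference between the control groups was 0.95 (SE 2.53, adjusted p = 0.930, 3 samples against 2, missing value left out, over 467 assays with a Ct in at least 10 samples).

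rno-miR-219-1-3p, named for the 3p strand of Mir219a-1, had the highest Cts of the 6 in most samples. Its Cts were 24.8, 24.6 and 24.4 in wt control, 15.8, 25.4 and 24.8 in P2rx7-/- control, 25.5 and 25.7 in wt post-SE replicates 2 and 3, and 11.7, 25.4 and 26.9 in P2rx7-/- post-SE. P2rx7-/- control replicate 1 and P2rx7-/- post-SE replicate 1 were thus far below the rest. Its Ct minus that of hsa-miR-219 was -2.54 and -2.94 cycles in those samples and from 3.97 to 8.61 cycles elsewhere. The SDs in these groups were 5.49 and 8.04 on the level scale, and the limma differences between genotypes, 3.06 in controls and 4.41 after status epilepticus, had SEs of 3.76 and 4.21 (adjusted p = 0.855 and 0.999). In wt mice the level was -6.61 and -7.12 post-SE against -5.77, -5.99 and -6.18 in control, so that the groups did not overlap (exact permutation p = 0.1, the smallest that 2 against 3 samples allow). The shares given for complete assays are for 3 against 3 samples and do not compare with this.

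Differences of Ct between a pair of assays in the same sample do not depend on a normalizer. hsa-miR-338-3p minus hsa-miR-338-5P averaged 0.710 ± 0.557 cycles for wt control, 0.861 ± 0.426 for P2rx7-/- control, 0.839 ± 0.602 for wt post-SE and 1.46 ± 0.210 for P2rx7-/- post-SE (SD, n = 3). The P2rx7-/- post-SE samples, at 1.32, 1.35 and 1.70, were above all P2rx7-/- control samples, at 0.455, 1.30 and 0.825, by a mean of 0.595 (exact permutation p = 0.1; 0.8 after Benjamini-Hochberg adjustment over 40 gap tests). That is, relative to the 5p strand there was less 3p strand in each P2rx7-/- post-SE sample than in any P2rx7-/- control sample, although the closest samples, at 1.30 and 1.32, hardly differed. The P2rx7-/- post-SE samples were also above all wt control samples, by a mean of 0.747 (exact permutation p = 0.1, adjusted p = 0.8). They overlapped wt post-SE, where replicate 1 was at 1.47.

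hsa-miR-219 minus hsa-miR-338-3p was 3.55 cycles in wt control replicate 1 while wt control replicates 2 and 3 were at -0.802 and -0.643. The means were -1.21 ± 0.276 for P2rx7-/- control, -0.991 ± 0.315 for wt post-SE and -2.26 ± 1.78 for P2rx7-/- post-SE (SD, n = 3). All 3 P2rx7-/- control samples were below all wt control samples (exact permutation p = 0.1, adjusted p = 0.8 over 40 tests), by a mean of -1.91 that was mostly wt control replicate 1. hsa-miR-219 minus hsa-miR-219-2-3p was lowest in P2rx7-/- post-SE replicate 1, at -2.60, and in wt control replicate 1, at -1.93, and from -1.48 to -0.0802 in the other 10 samples. None of the 40 tests passed after adjustment, the lowest adjusted p being 0.8. None could have passed, as the exact permutation p cannot fall below 0.1 with 3 samples against 3, which is above the threshold. These tests therefore cannot decide whether the gaps differ between groups.

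Across the 12 samples the complete assays of each family rose and fell together, though for miR-338 only Pearson's r passed after adjustment. The incomplete assays were not correlated. Pearson's r was 0.845 between hsa-miR-219 and hsa-miR-219-2-3p (permutation p = 0.00293, 0.0127 after adjustment over 6 pairs) and Spearman's rho 0.811 (permutation p = 0.00224, adjusted 0.0134), with r = 0.666 when the 2 samples farthest from the median were left out. For hsa-miR-338-3p and hsa-miR-338-5P r was 0.774 (permutation p = 0.00423, adjusted 0.0127) and rho 0.657 (permutation p = 0.0243, adjusted 0.0728), and r was 0.492 without the 2 farthest samples. Without wt control replicate 1, r was 0.755 and rho 0.755 for the miR-219 pair, and 0.520 and 0.555 for the miR-338 pair. All pairs share the same sample mean as normalizer, and the points come from 4 groups.

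Between families Pearson's r was negative and Spearman's rho positive over the 12 samples, and no pair passed after adjustment. For hsa-miR-219 and hsa-miR-338-3p r was -0.379 (permutation p = 0.213, adjusted 0.222) and rho 0.350 (permutation p = 0.266, adjusted 0.531). For the other 3 pairs r was -0.368 (hsa-miR-219 and hsa-miR-338-5P, permutation p = 0.222), -0.549 (hsa-miR-219-2-3p and hsa-miR-338-3p, permutation p = 0.0797) and -0.529 (hsa-miR-219-2-3p and hsa-miR-338-5P, permutation p = 0.0988), with adjusted p from 0.148 to 0.222, and rho was 0.0420, 0.147 and 0.0909 (adjusted permutation p = 0.905 each). The negative r rested on wt control replicate 1, as without it r was 0.215, 0.224, 0.373 and 0.418 for the 4 pairs in this order. Without P2rx7-/- post-SE replicate 1 as well, it was 0.800, 0.299, 0.534 and 0.434 over 10 samples. These 2 samples were left out for their own values, as the farthest from the median, and r over the 10 was not tested. For the 4 complete assays, wt control replicate 1 had the lowest levels of both miR-219 assays and the highest of both miR-338 assays among the 12 samples.

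**Figure D4:**
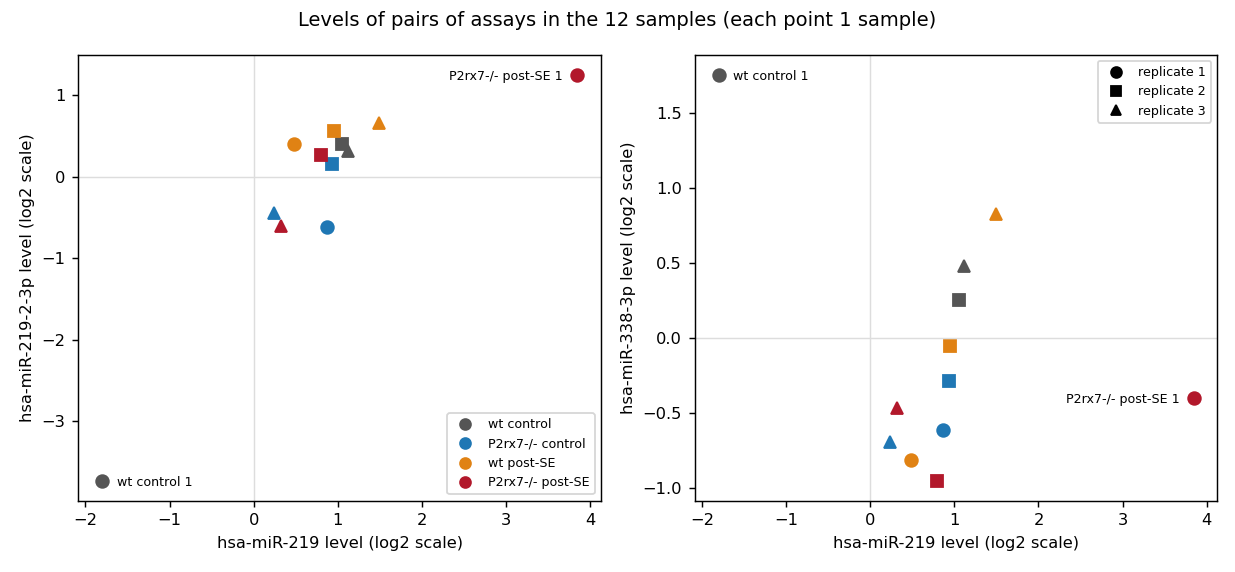
Levels (log2 scale) of hsa-miR-219 against hsa-miR-219-2-3p and against hsa-miR-338-3p, each point 1 of the 12 samples, with colour for the group and marker shape for the replicate. wt control replicate 1 (hsa-miR-219 at -1.80) and P2rx7-/- post-SE replicate 1 (3.85) lie apart. For hsa-miR-219 and hsa-miR-338-3p, Pearson's r was -0.379 over the 12 samples. It was 0.800 over the 10 left when these 2, the farthest from the median, were dropped, which was not tested.

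The assays most like each member were found by Spearman's rho of the levels over the 12 samples, among 334 other assays, as a description. hsa-miR-219 was most like hsa-miR-219-2-3p (0.811), hsa-miR-190b (0.755) and hsa-miR-195 (0.748). hsa-miR-219-2-3p was most like hsa-miR-30a-5p (0.902), mmu-miR-582-5p (0.895) and hsa-miR-27a (0.839), and hsa-miR-219 came next. hsa-miR-338-3p was most like mmu-miR-93 (0.895), rno-miR-339-3p (0.811) and hsa-miR-224 (0.804), while hsa-miR-338-5P ranked 25. hsa-miR-338-5P was most like hsa-miR-218-2# (0.692), hsa-miR-484 (0.678) and mmu-miR-467e (0.671), with hsa-miR-338-3p ranked 7. Without wt control replicate 1, hsa-miR-338-3p and hsa-miR-219-2-3p were equally like hsa-miR-219 (rho 0.755 each over 11 samples).

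Other miRNAs tied to oligodendrocyte development were read by 10 assays, of which 7 were complete. For P2rx7-/- control against wt control, 0 of the 7 passed in limma, and 1 had an unadjusted p below 0.05, as had 5.97% of the 335 assays. Of the 7, 3 were lower, and 4 were up-regulated and 0 down-regulated by the FC rule, against 21.2% and 15.5% of the 335 assays. Their median difference was 1.37, against -0.02 over all 335 assays, and 0.05 without wt control replicate 1. The ends of the list were hsa-miR-125a-3p at 3.06 (limma adjusted p = 0.665) and dme-miR-7, which promotes precursor formation, at -0.67 (limma adjusted p = 0.747). In no comparison did any of the 7 lie below the reference group without overlap or pass limma's adjusted threshold, and the medians were 0.69 for wt post-SE against wt control (0.18 without wt control replicate 1), 0.01 for P2rx7-/- post-SE against P2rx7-/- control and 0.20 for P2rx7-/- against wt post-SE.

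Markers of other cells were described in the same way for the comparisons in which both complete miR-338 assays were lower. Between the control genotypes the median difference was 0.63 over 4 complete neuronal assays, 0.21 over 4 of microglia and myeloid cells, 1.37 for the only complete vessel assay (hsa-miR-145, also on the list above) and -0.29 over 2 red blood cell assays. Without wt control replicate 1 these were 0.14, 0.18, 0.41 and 0.37. For wt post-SE against wt control the medians were 0.96, 0.06, 2.04 and -1.32 in this order, and 0.34, -0.02, 1.04 and -0.70 without wt control replicate 1. Both red blood cell assays, hsa-miR-486 and mmu-miR-451, were down-regulated by the FC rule there, as were 12.5% of the 335 assays, and 1 of them did not overlap wt control, as for 5.07%. For P2rx7-/- post-SE against wt control the medians were 0.76, 0.32, 1.38 and -0.93, and 0.25, 0.24, 0.38 and -0.32 without wt control replicate 1. None of the assays passed in limma in any of the 5 comparisons of groups, and their part in the miR-338 values was not tested.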

How the data were processed

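Ct values from 12 hippocampal samples were analyzed, in 4 groups of 3 taken from the labels. The authors deposited Ct scores per assay and sample, not normalized, from an OpenArray run on a QuantStudio instrument after pre-amplification; values at or above 28 are not listed, and the Ct software is not given in the sources used here. The authors also deposited a table of their own fold changes, which was not used. Columns that could not be assigned to a sample numbered 0.

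Assays with a Ct below 28 in all 12 samples (335) were kept, as in the methods of the study, and each sample was centred on its mean Ct (global mean). limma 3.58.1 in R 4.3.3 (lmFit and eBayes, 1 coefficient per group) was fitted to −ΔCt over all 335 assays, with 8 contrasts and Benjamini-Hochberg adjustment over all assays, called below 0.05. It was tested on simulated data. FC was 2^−ΔΔCt, averaged arithmetically. Exact permutation tests of 3 against 3 samples were two-sided, and correlations used 100000 permutations. The other steps used scipy 1.17.1, pandas 2.3.3, numpy 2.4.6 and matplotlib 3.10.9 under Python 3.11.15. Named miRNAs were all assays of miR-219 and miR-338, the 3 assays most like each complete one, and the ends of the oligodendrocyte list. The members and the lists (oligodendrocyte, neuron, microglia and myeloid, vessel, red blood cell) were chosen with earlier results of these data known. Alternatives were other normalizers, filters, tests, a replicate block and leaving out each sample. Replicates are separate pools of different mice. A Ct table gives no read depth, so the number of samples and the single reading per assay limit the precision. Same-numbered samples were not paired by the labels, and the correlations of their deviations from the group means ranged from -0.227 to 0.277 over 18 pairs, so replicate numbers were not used as a block in the fits reported.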

Additional observations from a re-analysis of the deposited data

Results flagged for a closer look

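The mean difference of hsa-miR-338-5P after status epilepticus had opposite signs in the 2 genotypes, but the groups overlapped in both. All 3 wt post-SE samples (levels 0.65, 0.73 and 1.09) were below the wt control mean of 1.54, and all 3 P2rx7-/- post-SE samples (0.92, 0.40 and 1.23) were above the P2rx7-/- control mean of 0.33. However, wt control replicate 3 (0.64) was below every wt post-SE sample. P2rx7-/- control replicate 2 (1.02) was above the P2rx7-/- post-SE samples at 0.92 and 0.40. The limma difference was -0.71 in wt mice (-0.28 without wt control replicate 1) and 0.52 in P2rx7-/- mice. The difference between these effects was 1.23 on the log2 scale in limma (SE 0.69, unadjusted p = 0.102, adjusted p = 0.851 over 335 assays), so it did not pass the test, and it was 0.76 without wt control replicate 1.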

How the results depend on the processing

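Limits came from 3 samples per group, 1 reading per assay and isolated readings far from the rest. For the 4 complete assays, 326 of 328 log2 differences under other normalizers, filters and tests kept their direction and side of the limma threshold, as did 360 of 384 values with a sample left out, and the lowest adjusted p of any was 0.367. The exceptions were hsa-miR-338-3p for P2rx7-/- post-SE against P2rx7-/- control with snoRNA202 (0.00919) and the hsa-miR-219 interaction with snoRNA135 (-0.10). The cause was not tested. Many of the values counted could not change direction. The replicate block, a robust limma fit, fits of only the groups compared, the t-test and the filter of a Ct in at least 10 samples leave the estimate unchanged. Leaving out a sample from outside the groups compared moves it only through the set of complete assays. These counts therefore overstate how far the directions were put to the test.

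Taking Cts under 12 as missing reversed hsa-miR-338 for wt post-SE against wt control (-0.24), for post-SE averaged over genotypes (-0.82) and for genotype averaged over treatments (0.43). It also reversed rno-miR-219-1-3p for P2rx7-/- post-SE against P2rx7-/- control (-4.21), wt post-SE (-0.21) and wt control (-1.07), and its interaction (-3.34). By construction this setting drops the Ct of 10.1 and that of 11.7.

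With each sample left out in turn, log2 differences that changed sign ranged as follows. For hsa-miR-219 the range was -0.39 to 1.05 for P2rx7-/- control against wt control, -0.14 to 1.35 for wt post-SE against wt control, -0.11 to 1.65 for P2rx7-/- post-SE against P2rx7-/- control, -0.42 to 1.35 for P2rx7-/- against wt post-SE, and -0.98 to 1.07 for the interaction. For hsa-miR-219-2-3p it was -0.64 to 1.41 for P2rx7-/- control against wt control, -0.72 to 0.22 for P2rx7-/- against wt post-SE, -0.0875 to 2.01 for P2rx7-/- post-SE against wt control, -1.65 to 0.40 for the interaction and -0.44 to 0.58 for genotype averaged over treatments. For hsa-miR-338-3p it was -0.17 to 0.11 for P2rx7-/- post-SE against P2rx7-/- control. For hsa-miR-338-5P it was -0.16 to 0.27 for P2rx7-/- against wt post-SE and -0.32 to 0.10 for post-SE averaged over genotypes. Average FCs changed side of 1.5 or 0.6 under other normalizers too, for instance under snoRNA202 for hsa-miR-219 (1.29) and hsa-miR-219-2-3p (1.46) and under snoRNA135 for hsa-miR-338-5P (0.633), all for P2rx7-/- control against wt control. Of the average FCs above 1.5 or below 0.6, those that crossed 1 with a sample left out ranged from 0.778 to 2.12 (hsa-miR-219) and 0.657 to 2.73 (hsa-miR-219-2-3p) for P2rx7-/- control against wt control. For hsa-miR-219 they ranged from 0.953 to 2.66 for wt post-SE against wt control, 0.936 to 5.07 for P2rx7-/- post-SE against P2rx7-/- control and 0.756 to 4.12 for P2rx7-/- against wt post-SE.

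The count of assays called by limma was 0 in each of the 8 contrasts, and for post-SE averaged over genotypes it was 2 under the median normalizer and 2 with Ct below 26. With a sample left out it ranged from 0 to 1 for wt post-SE and for P2rx7-/- post-SE, each against wt control, for P2rx7-/- post-SE against P2rx7-/- control and for post-SE averaged over genotypes (1 without P2rx7-/- control replicate 2 in all 4, and 1 without wt control replicate 2 in the last). With the replicate block, hsa-miR-338-3p in P2rx7-/- control against wt control stayed at -1.36 (limma unadjusted p = 0.0331, adjusted p = 0.678) and 0 assays were called in any contrast. By the methods' t-test on the same values 13 of 335 assays were below 0.05 in that comparison and 0 after Benjamini-Hochberg adjustment.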
